A study of Mus musculus with 12 samples.

Results

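The deubiquitinating enzyme genes examined here are the 70 genes whose symbol is Usp with a number, or starts with Uchl, Otud, Otub or Josd, out of 19906 genes named by a probe of their own on the arrays. Each gene was represented by its brightest such probe. The rule for symbols uses names alone, but it was chosen with earlier results of these data known. RefSeq lists 76 symbols of this form, and Usp49, Uchl4, Usp17le, Usp17le-ps, Uchl1os and Usp46os1 had no probe that names that gene alone. Both Usp6nl, which encodes a GTPase-activating protein, and Usp46os2, an RNA from the strand opposite Usp46, carry the symbol without being such enzymes, so 68 members belong to the family. All 70 members were measured on all 12 arrays, and no filter on low values was applied.

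Ubiquitin is a small protein that is joined to other proteins, often as chains, and marks them for the proteasome, for sorting at membranes or for a change of activity. Deubiquitinating enzymes cut these bonds. The Usp, Uchl, Otu and Josephin families are cysteine proteases, and a further family, which includes the proteasome subunit Psmd14, are zinc proteases. In photoreceptors the ubiquitin system is best known for the turnover of misfolded phototransduction proteins, and mice that lack Uchl3 lose photoreceptors.

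The RNA came from fluorescence-sorted cones of C3H/HeNCrl mice (Pde6brd1, labelled f-RD), whose rods carry the rd1 allele of Pde6b and die early. All animals had received an adeno-associated virus under the retina when young, with the transgene behind the mouse cone arrestin promoter (mCAR). Control cones carried EGFP and were taken at 110 days (4 arrays) or 220 days (4 arrays) of age, with 500 sorted cells per array. The other 4 arrays held cones with eNpHR-EYFP, in which a chloride pump driven by light is joined to a yellow fluorescent protein, and were taken at 165 days with 300 cells per array. Construct, age and number of cells therefore cannot be told apart between EGFP and eNpHR-EYFP cones, and no sample without a virus was used here. Samples are labelled as biological replicates; the number of animals per sample was not given in the sources used here.

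Median log2 intensity was 2.72 to 2.83 on the 12 arrays. The 95th percentile of intensity spanned 173 to 186 with eNpHR-EYFP and 114 to 135 with EGFP, so values are given both as deposited and after quantile normalization, which gives all arrays 1 distribution. The EGFP columns were out of step with the probe names from line 13588 on and were realigned before use. Of the members, 12 lay before that line and 58 were realigned. Cone identity was checked on 20 cone genes. Their mean level was 4.15 to 6.23 on the 110-day arrays, with replicates 1 and 4 lowest at 4.15 and 4.47, 4.96 to 5.69 at 220 days and 5.79 to 6.98 in eNpHR-EYFP cones, and the cone gene Arr3, whose promoter drives the transgenes, averaged 7.11, 7.93 and 10.15. In such samples fewer cones and less RNA per cone cannot be told apart. Against the mean of both EGFP ages, 8 of the 20 cone genes rose as deposited and 3 fell, with 23.0% and 10.1% of all genes. After quantile normalization 5 rose and 3 fell, with 16.1% and 12.4%. Kcnv2, Thrb and Slc24a2 fell on both scales. The rise of Arr3 passed as deposited (limma adjusted p = 0.0407) and not after quantile normalization (adjusted p = 0.0861).

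Josd1, of the Josephin family, had the largest difference among the members, so the 250 bases before its transcription start are shown beside those of its relative Josd2. They are taken from RefSeq on GRCm38.p6 and read 5′ to 3′ on the strand of the gene, and the capitals mark a GC box (GGGCGG, either strand). Josd1 lies on the minus strand, with this stretch at chr15:79687873-79688122, and Josd2 on the plus strand, with its stretch at chr7:44467730-44467979.
Josd1: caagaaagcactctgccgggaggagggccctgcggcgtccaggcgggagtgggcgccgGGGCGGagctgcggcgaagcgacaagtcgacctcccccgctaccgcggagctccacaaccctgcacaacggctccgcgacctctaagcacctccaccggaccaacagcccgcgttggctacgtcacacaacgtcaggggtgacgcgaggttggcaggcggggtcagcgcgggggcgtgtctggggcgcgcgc
Josd2: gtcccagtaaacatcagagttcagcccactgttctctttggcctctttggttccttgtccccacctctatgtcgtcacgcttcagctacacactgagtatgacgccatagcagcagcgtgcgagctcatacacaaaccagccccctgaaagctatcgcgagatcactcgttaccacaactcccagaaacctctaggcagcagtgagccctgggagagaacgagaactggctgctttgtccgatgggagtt
The Josd1 stretch held 71.6% G and C and 1 GC box, and the Josd2 stretch held 53.6% and no GC box. Neither held the core recognised by the photoreceptor factor CRX (TAATCC), the CCAAT box or the cyclic AMP response element (TGACGTCA). Such stretches were found for 56 members, 60 promoters in all. The GC box occurred in 35 of the 60 (58.3%), against 32.7% of 32851 mouse promoters of the same length. CCAAT occurred in 30.0% against 33.8%, TAATCC in 6.67% against 6.25% and TGACGTCA in 1.67% against 1.55%. These are matches of letters on either strand and no test was made.

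Probe brightness is not a measure of abundance between genes, but it shows where the members lay on these arrays. The mean log2 level over all arrays was under 3.5 for 45 members, and 23 members lay below the median probe. Only Josd1, Uchl3, Usp24, Usp31 and Usp21 were above 7. Without detection values it is unknown whether a dim probe measured its gene, and log2 differences of dim probes may be understated. The dimmest was Usp9y, the Y-linked copy of Usp9x, with group means of 1.74, 1.70 and 1.73 at 110 days, at 220 days and in eNpHR-EYFP cones.

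**Figure D1:**
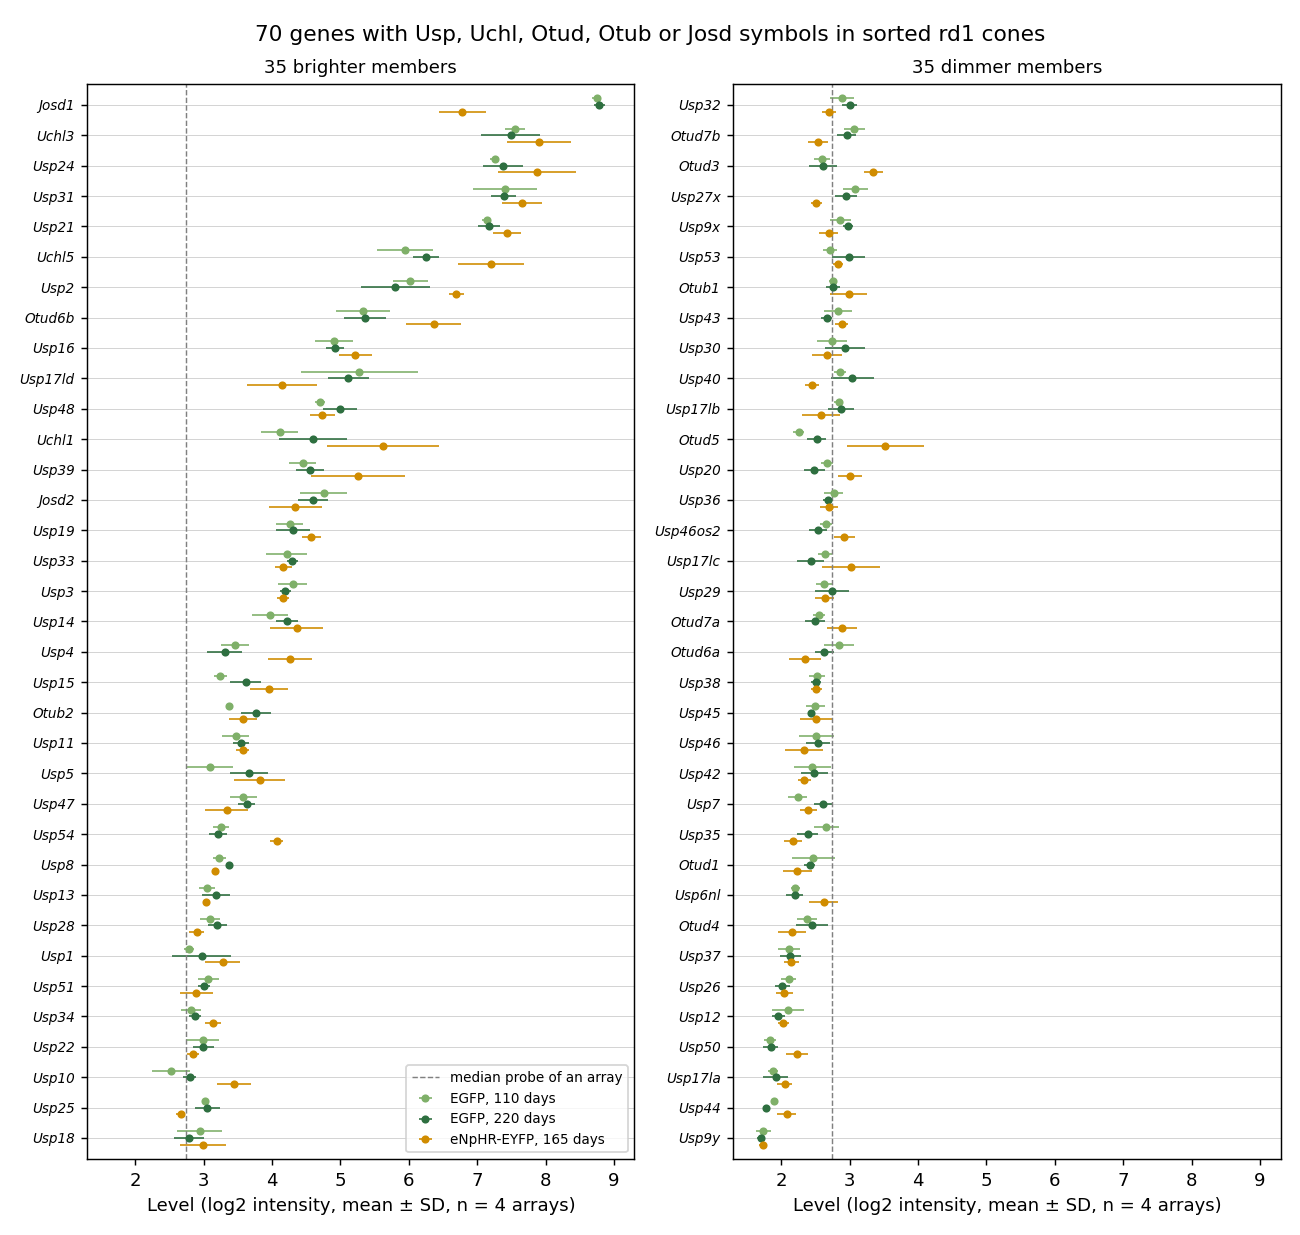
Mean log2 intensity of each of the 70 genes in EGFP cones at 110 and 220 days and in eNpHR-EYFP cones at 165 days; points are means of 4 arrays, bars are SD, and the dashed line is the median probe of an array. Josd1 fell from 8.75 and 8.79 to 6.78, while Uchl1, Uchl5, Otud5 and Otud6b stood higher in eNpHR-EYFP cones.

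The comparison of eNpHR-EYFP cones with the mean of both EGFP ages asked how the members differed between cones with the chloride pump and control cones. As deposited, 19 of 70 members were higher and 8 lower at a limma adjusted p under 0.05, while 23.0% of all genes were higher and 10.1% lower. After quantile normalization 16 were higher and 10 lower, with 16.1% and 12.4% of all genes. Passing the same way on both scales were 16 members higher and 8 lower, against 15.9% and 9.77% of all genes, so the shares of the members lay near those of all genes. Their median log2 difference was 0.02 as deposited and -0.02 after quantile normalization, and over all genes it was 0.07 and 0.02. Rises that passed on both scales spanned 0.24 to 1.27 as deposited, 3 of them at least 2-fold (Uchl1, Uchl5 and Otud5), and falls spanned -0.35 to -1.99, 2 of them at least 2-fold (Josd1 and Usp17ld). All 4 eNpHR-EYFP arrays lay above all 8 EGFP arrays for 9 members and below them for 5 as deposited, with 14.2% and 6.14% of all genes. After quantile normalization this held for 6 and 6 members, with 9.9% and 8.22% of all genes.

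**Figure D2:**
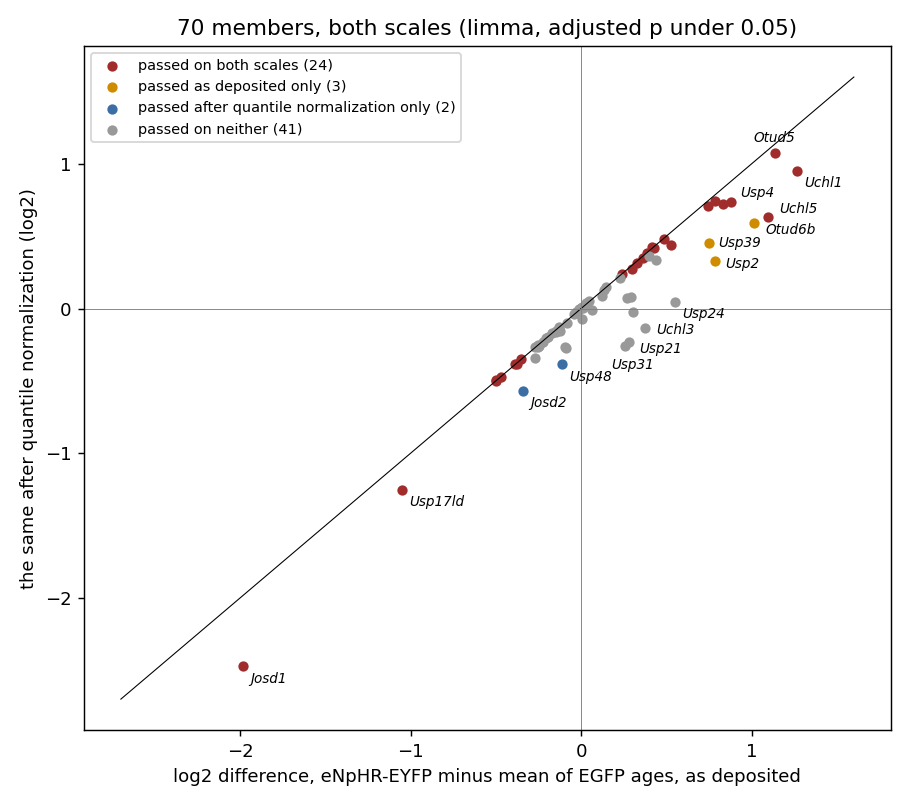
Log2 difference of each of the 70 genes between eNpHR-EYFP cones and the mean over EGFP ages, as deposited (x axis) and after quantile normalization (y axis), with the line of equality; colours give where the gene passed limma's adjusted p of 0.05. Josd1 lies alone at -1.99 and -2.47, most genes lie close to the line, and the brighter genes Uchl3, Usp21 and Usp31 lie above 0 on the x axis and below 0 on the y axis.

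Josd1 encodes a Josephin enzyme found at the plasma membrane. Its log2 levels were 8.67, 8.82, 8.79 and 8.73 at 110 days, 8.72, 8.73, 8.90 and 8.80 at 220 days, and 6.94, 6.84, 7.07 and 6.29 in eNpHR-EYFP cones. All 8 EGFP arrays lay within a narrow band, and all 4 eNpHR-EYFP arrays lay far below it. The log2 difference was -1.99 ± 0.13 (SE; 95% confidence interval -2.26 to -1.71), 3.96-fold lower, with an adjusted p of 3.51e-06. It was -1.97 against the 110-day cones alone and -2.0 against the 220-day cones alone, which share the eNpHR-EYFP arrays. Quantile normalization gave -2.47 ± 0.11, and 23 alternatives gave -2.47 to -1.82. In the table the Josd1 line had been moved by 5 lines, and the nearest change of offset was 1143 lines away.

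Josd2, the close relative of Josd1, was at 4.36, 5.0, 5.09 and 4.57 at 110 days, 4.43, 4.41, 4.85 and 4.72 at 220 days, and 4.64, 4.10, 4.69 and 3.93 in eNpHR-EYFP cones. These groups overlapped, and the difference of -0.34 ± 0.18 did not pass as deposited (adjusted p = 0.199). It passed after quantile normalization, at -0.57 ± 0.17 (adjusted p = 0.0313). Whether Josd1 and Josd2 differed from each other was not tested.

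Enzymes that act at the proteasome or recycle ubiquitin had 5 measured members, of which Uchl1 and Uchl5 rose on both scales and Uchl3, Usp14 and Usp5 did not pass on either. On both scales 15.9% of all genes rose and 9.77% fell. This group and the later groups by function were formed after the values were seen. Uchl1 is an abundant ubiquitin hydrolase of neurons. Its levels were 4.49, 3.89, 3.98 and 4.09 at 110 days, 4.97, 5.08, 4.14 and 4.20 at 220 days, and 6.10, 6.12, 5.87 and 4.41 in eNpHR-EYFP cones. In 3 of the 4 eNpHR-EYFP arrays it stood above every control array, while replicate 4 lay inside the control range. The rise was 1.27 ± 0.31 (2.41-fold, adjusted p = 0.0107), or 0.95 after quantile normalization (adjusted p = 0.0347). Against 110 days alone it was 1.51 (adjusted p = 0.0108), and against 220 days alone 1.02, which did not pass (adjusted p = 0.066).

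Uchl5 is recruited to the proteasome by Adrm1. It was at 6.30, 6.30, 5.55 and 5.64 at 110 days, 6.36, 6.34, 6.36 and 5.97 at 220 days, and 7.82, 6.98, 7.30 and 6.70 in eNpHR-EYFP cones, with no overlap as deposited. The rise was 1.10 ± 0.21 (2.14-fold, adjusted p = 0.00267) as deposited and 0.63 after quantile normalization (adjusted p = 0.0358), where the groups overlapped. Uchl3, which also removes the ubiquitin-like protein Nedd8, was at 7.38, 7.60, 7.73 and 7.53, then 7.90, 7.72, 7.44 and 6.91, and then 7.93, 7.99, 8.41 and 7.28 in the same order of groups. Its difference of 0.38 ± 0.21 did not pass (adjusted p = 0.212), and it was -0.14 after quantile normalization. The other proteasome-bound enzyme, Usp14, differed by 0.27 ± 0.16 as deposited (adjusted p = 0.255) and by 0.08 after quantile normalization. Usp5, which takes apart free ubiquitin chains, differed by 0.44 ± 0.19 as deposited (adjusted p = 0.103) and by 0.34 after quantile normalization (adjusted p = 0.206). With the mean level of the cone genes as a covariate Usp5 stood at 0.86 and passed (adjusted p = 0.00402).

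Replicate 4 of the eNpHR-EYFP cones was the lowest of its group for Uchl1, Uchl3, Uchl5, Usp14 and Usp5 alike. It was the lowest in 31 of 70 members (44.3%), against 27% of all genes, and in 51.4% against 33.8% after quantile normalization; no test was made of this. The same array had the highest mean level of cone genes, 6.98. Without it Usp24, Usp5, Uchl3, Otub1 and Usp21 passed, with rises of 0.84 (adjusted p = 0.000828), 0.62 (0.0213), 0.58 (0.0446), 0.35 (0.0108) and 0.34 (0.0359), and Otud6a, Usp17lc and Usp44 no longer passed, at -0.30 (adjusted p = 0.102), 0.36 (0.116) and 0.21 (0.0839). Usp24 was at 8.15, 8.22, 8.11 and 7.01 in eNpHR-EYFP cones and at 7.18 to 7.81 in control cones, and with all arrays its difference was 0.55 ± 0.21 (adjusted p = 0.0698) and 0.04 after quantile normalization. Usp24 also passed without EGFP 220 days replicate 1 (0.62, adjusted p = 0.0441), and Usp21 without EGFP 220 days replicate 3 (0.31, adjusted p = 0.0479).

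**Figure D3:**
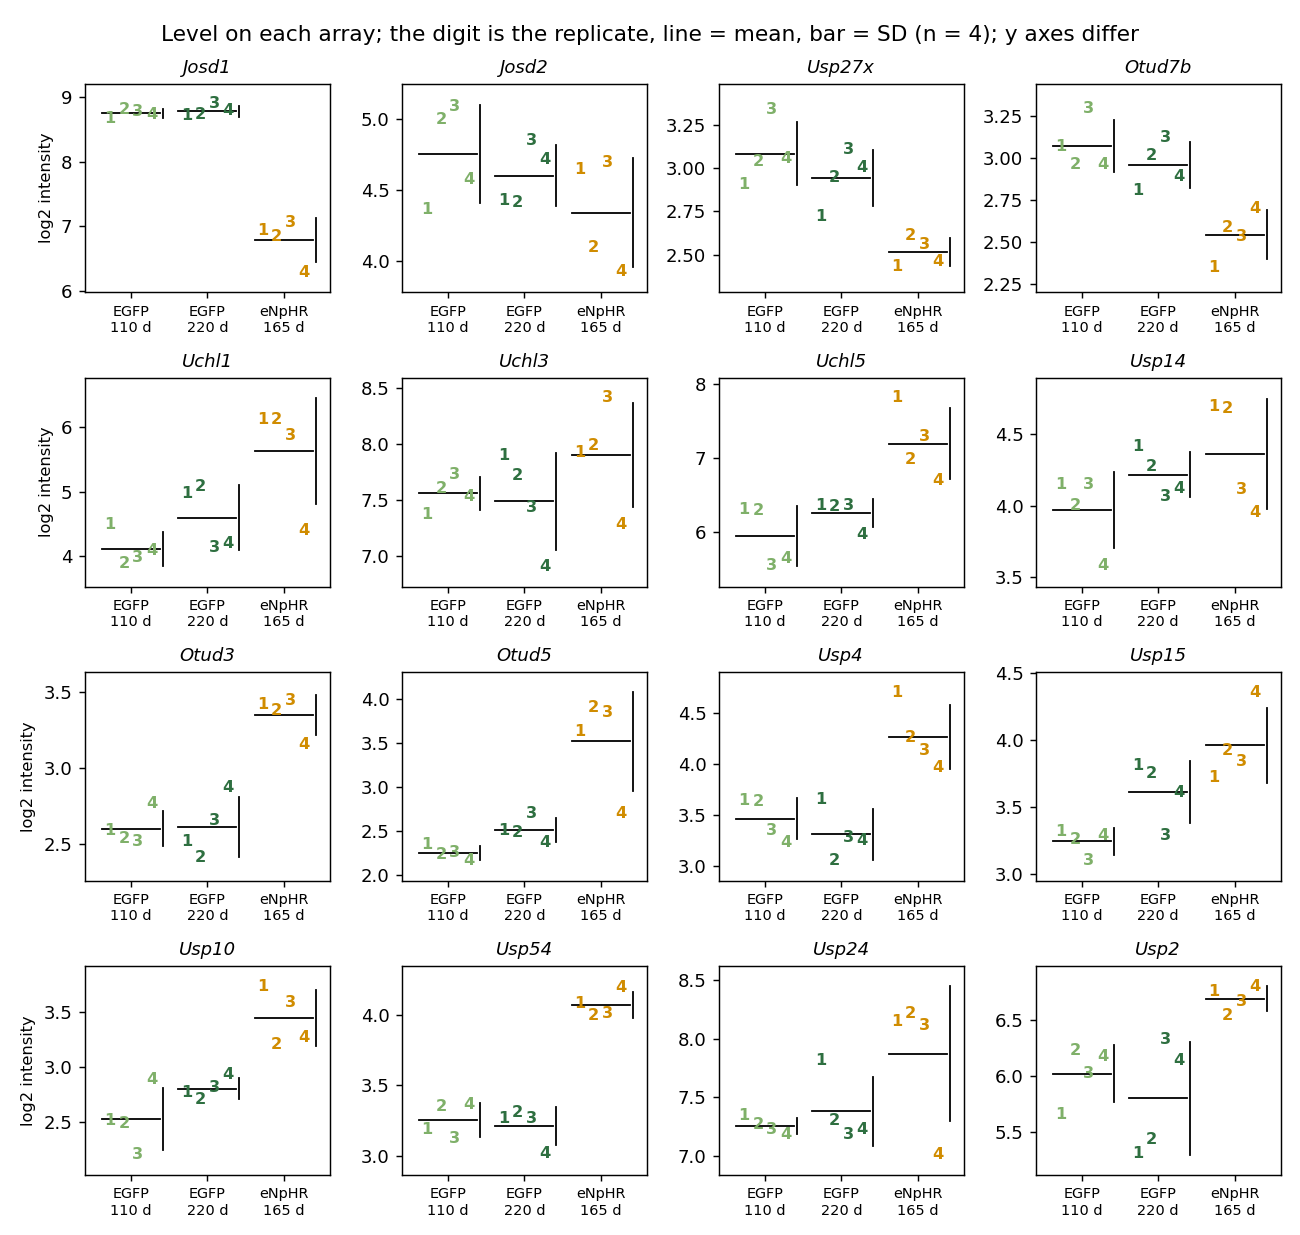
Log2 intensity on each array for 16 of the genes; the digit is the replicate, the horizontal line the group mean and the vertical bar the SD of 4 arrays, with a separate y axis per gene. Josd1, Usp27x and Otud7b lie below all control arrays and Uchl5, Otud3, Usp4, Usp10, Usp54 and Usp2 above them, while eNpHR-EYFP replicate 4 (4 in orange) lies apart for Uchl1, Otud5 and Usp24.

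Of the 10 members with an ovarian tumour (Otu) domain, Otud3, Otud5 and Otud7a rose and Otud6a and Otud7b fell on both scales. The shares of all genes were 15.9% and 9.77%. Otud5 restrains type I interferon signalling. It was at 2.35, 2.23, 2.26 and 2.17 at 110 days, 2.51, 2.49, 2.70 and 2.38 at 220 days, and 3.63, 3.91, 3.85 and 2.70 in eNpHR-EYFP cones, where replicate 4 equalled the highest control array. Its rise was 1.14 ± 0.19 (2.2-fold, adjusted p = 0.00105) and 1.07 after quantile normalization. The Otud5 line lay 18 lines from a change of offset in the realignment.

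Otud3 was at 2.58, 2.54, 2.51 and 2.77, then 2.51, 2.41, 2.66 and 2.87, and in eNpHR-EYFP cones at 3.42, 3.38, 3.45 and 3.15. All 4 eNpHR-EYFP arrays were above the controls, with a rise of 0.74 ± 0.10 (adjusted p = 0.000277). Otud7b, which cuts chains linked through lysine 11 and limits non-canonical NF-kB signalling, went the other way. It was at 3.07, 2.96, 3.29 and 2.96, then 2.81, 3.02, 3.12 and 2.89, and then 2.35, 2.58, 2.54 and 2.70, a difference of -0.47 ± 0.10 with no overlap (adjusted p = 0.00379). Its relative Otud7a was 0.36 ± 0.10 higher (adjusted p = 0.0233) and lost the call without eNpHR-EYFP replicate 1 (0.31, adjusted p = 0.0795) or replicate 2 (0.29, adjusted p = 0.082).

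Otud6b was at 4.83 to 5.81 in control cones and at 6.25, 5.84, 6.68 and 6.68 in eNpHR-EYFP cones. Its rise of 1.02 ± 0.21 (adjusted p = 0.0038) was 0.59 after quantile normalization and did not pass there (adjusted p = 0.0613). Otud6a was lower, at -0.39 ± 0.12 (adjusted p = 0.033), a call that was lost without any 1 of 7 arrays, with differences of -0.41 to -0.30 and adjusted p up to 0.102 (EGFP 110 days replicates 3 and 4, EGFP 220 days replicates 2 and 4, eNpHR-EYFP replicates 1, 3 and 4). Otub1, known for blocking the conjugating enzyme Ube2n, differed by 0.23 (adjusted p = 0.141) and Otub2 by 0.01 (adjusted p = 0.979). Otud1 and Otud4 were at -0.21 and -0.25 and did not pass; with the cone gene mean as covariate Otud4 did, at -0.46 (adjusted p = 0.034).

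Usp enzymes tied to receptor traffic and signalling had 11 measured members, of which Usp4, Usp15 and Usp20 rose and Usp25 fell on both scales. The shares of all genes were 15.9% and 9.77%. Usp4, Usp11 and Usp15 are close relatives that act on TGF-beta receptor signalling. Usp4 was at 3.64, 3.63, 3.35 and 3.23, then 3.66, 3.05, 3.28 and 3.25, and in eNpHR-EYFP cones at 4.71, 4.26, 4.13 and 3.96. The groups did not overlap, and the rise was 0.88 ± 0.15 (adjusted p = 0.00134). Usp15 was at 3.10 to 3.32 at 110 days, 3.29 to 3.81 at 220 days and 3.72 to 4.36 in eNpHR-EYFP cones, a rise of 0.53 ± 0.13 (adjusted p = 0.00974). It was 0.72 against 110 days alone (adjusted p = 0.0051) and 0.35 against 220 days alone (adjusted p = 0.126). Usp11 differed by 0.06 (adjusted p = 0.672).

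Another pair of relatives, Usp20 and Usp33, deubiquitinate the beta-adrenergic receptor. Usp20 was at 2.38 to 2.81 in control cones and 2.98, 3.20, 3.07 and 2.79 in eNpHR-EYFP cones, a rise of 0.43 ± 0.10 (adjusted p = 0.00597). Usp33 differed by -0.09 (adjusted p = 0.612). Usp25, a relative of Usp28, was at 2.81 to 3.26 in control cones and 2.61, 2.77, 2.66 and 2.63 in eNpHR-EYFP cones, below them without overlap, at -0.38 ± 0.08 (adjusted p = 0.00632). With the mean level of the cone genes as a covariate its difference was -0.34 and did not pass (adjusted p = 0.0616). Usp8 and Usp9x, which act on endosomes, stood at -0.13 and -0.23, and Usp18, which removes the ubiquitin-like protein Isg15, at 0.12. Usp12 and Usp46, which share the cofactor Wdr48, stood at 0.00 and -0.20. None of these passed with all arrays, and without eNpHR-EYFP replicate 2 Usp9x did, at -0.28 (adjusted p = 0.0494).

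Enzymes of chromatin and DNA repair had 11 measured members. Usp27x fell and Usp44 rose on both scales, and Usp48 was lower after quantile normalization only. On both scales 9.77% of all genes fell and 15.9% rose. Usp22, Usp27x and Usp51 are relatives that remove ubiquitin from histone H2B with the cofactors Eny2 and Atxn7l3. Usp27x was at 2.91, 3.04, 3.34 and 3.05, then 2.72, 2.94, 3.10 and 3.0, and then 2.43, 2.61, 2.56 and 2.46. Without overlap, it was lower by 1.41-fold, a log2 difference of -0.50 ± 0.10 (adjusted p = 0.00291). Both Usp22 and Usp51 differed by -0.15 and did not pass (adjusted p = 0.353 and 0.356). Whether Usp27x differed from its relatives was not tested.

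Usp44, of the spindle checkpoint, rose by 0.24 ± 0.07 (adjusted p = 0.0315), with control means of 1.90 and 1.79, and the call was lost without any 1 of 5 arrays (EGFP 220 days replicates 2 and 3, eNpHR-EYFP replicates 2, 3 and 4), with differences of 0.20 to 0.25. Usp48 differed by -0.11 as deposited (adjusted p = 0.498) and by -0.39 after quantile normalization (adjusted p = 0.0294). Usp45, in which mutations have been linked to a childhood retinal dystrophy, stood at 0.05 (adjusted p = 0.785). Usp7, which stabilises Mdm2, stood at -0.03, Usp1, which acts on Fancd2, at 0.40 (adjusted p = 0.0993), and Usp28 at -0.25 (adjusted p = 0.0601). Without EGFP 220 days replicate 1 the last 2 passed, at 0.47 (adjusted p = 0.0436) and -0.28 (adjusted p = 0.0345). The histone H2A enzymes Usp16 and Usp3 stood at 0.31 (adjusted p = 0.113) and -0.09 (adjusted p = 0.531). After quantile normalization they stood at -0.02 (adjusted p = 0.927) and at -0.27 without overlap (adjusted p = 0.0941). Usp16 passed as deposited without EGFP 110 days replicate 3 (0.37, adjusted p = 0.038).

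Among the 19 remaining Usp genes, Usp10, Usp34 and Usp54 rose and Usp35 and Usp40 fell on both scales, with 15.9% and 9.77% of all genes. Usp10 acts on p53 and binds the stress granule protein G3bp1. It was at 2.51, 2.49, 2.20 and 2.89, then 2.77, 2.70, 2.81 and 2.93, and in eNpHR-EYFP cones at 3.73, 3.20, 3.58 and 3.26, all above the controls, a rise of 0.79 ± 0.13 (adjusted p = 0.00124). Usp54 was at 3.02 to 3.36 in control cones and 4.08, 3.99, 4.01 and 4.19 in eNpHR-EYFP cones, a rise of 0.83 ± 0.08 (adjusted p = 4.51e-05). Its dimmer second probe went from 2.88 and 2.74 to 2.46, and the mean of both probes gave 0.24 (adjusted p = 0.0534), so the rise rests on 1 of the probes. Usp24 and Usp31 also had a bright and a dim probe each. Their dim probes averaged 2.69, 2.54 and 2.50 for Usp24 and 2.26, 2.18 and 2.50 for Usp31. The mean of both probes passed for Usp31, at 0.27 (adjusted p = 0.015), and did not pass for Usp24.

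Usp40 was at 2.74 to 3.5 in control cones and 2.49, 2.54, 2.49 and 2.29 in eNpHR-EYFP cones, at -0.50 ± 0.12 (adjusted p = 0.00964), or -0.33 with the cone gene mean as covariate, where it did not pass (adjusted p = 0.14). Usp35 stood at -0.35 (adjusted p = 0.0245) and lost the call without eNpHR-EYFP replicate 1 (-0.33, adjusted p = 0.0693) or replicate 2 (-0.31, adjusted p = 0.079). Usp34, an Axin enzyme of Wnt signalling, stood at 0.30 (adjusted p = 0.0241) and lost it without eNpHR-EYFP replicate 2 (0.28, adjusted p = 0.0644) or replicate 3 (0.25, adjusted p = 0.0845).

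Usp2, an enzyme of the circadian clock, was at 5.31 to 6.33 in control cones and 6.76, 6.55, 6.67 and 6.80 in eNpHR-EYFP cones. Its rise of 0.78 ± 0.19 (adjusted p = 0.00924) was 0.33 after quantile normalization and did not pass there (adjusted p = 0.274). With the cone gene mean as covariate it was 0.55 (adjusted p = 0.127). Usp39, a splicing factor without deubiquitinating activity, rose by 0.75 ± 0.24 as deposited (adjusted p = 0.0347), and its quantile-normalized difference of 0.45 did not pass (adjusted p = 0.142). Its call was also lost without any 1 of 8 arrays (EGFP 110 days replicates 1, 2 and 4, EGFP 220 days replicates 3 and 4, eNpHR-EYFP replicates 1, 2 and 3), with values of 0.52 to 0.76. The bright genes Usp21 and Usp31 differed by 0.28 (adjusted p = 0.0596) and 0.26 (adjusted p = 0.343), and by -0.23 and -0.26 after quantile normalization, where neither passed. The other 10 Usp genes of this group, Usp13, Usp19, Usp32, Usp36, Usp37, Usp38, Usp42, Usp43, Usp47 and Usp53, lay between -0.27 and 0.29 and did not pass on either scale. Usp32, at -0.25, passed without EGFP 110 days replicate 1 (-0.28, adjusted p = 0.0394) or EGFP 220 days replicate 1 (-0.27, adjusted p = 0.0492). Usp30, which opposes the removal of mitochondria by parkin, stood at -0.17 (adjusted p = 0.422).

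Members known from germ cells, from the Y chromosome or from the repeated Usp17l family numbered 8. Usp17lc and Usp50 rose and Usp17ld fell on both scales, with 15.9% and 9.77% of all genes. The Usp17l copies are nearly identical to each other, so signal cannot be assigned to 1 copy with certainty. Usp17ld was at 5.58, 4.40, 6.33 and 4.79, then 4.95, 5.26, 4.79 and 5.46, and then 3.47, 4.62, 4.03 and 4.47. Its difference was -1.05 ± 0.33 (adjusted p = 0.0338), with overlap, and the call was lost in 8 of 23 alternatives, among them without EGFP 110 days replicate 1, EGFP 220 days replicates 2 and 4 and eNpHR-EYFP replicates 1 and 3 (-1.02 to -0.82). Usp17lc was 0.49 higher (adjusted p = 0.0376), a call lost without any 1 of 7 arrays (EGFP 110 days replicates 1, 2 and 3, EGFP 220 days replicates 2 and 3, eNpHR-EYFP replicates 2 and 4), with values of 0.36 to 0.50. Usp50 was at 1.77 to 2.0 in control cones and 2.14, 2.10, 2.46 and 2.20 in eNpHR-EYFP cones, 0.39 ± 0.09 higher (adjusted p = 0.00632). Usp9y, Usp17la, Usp17lb, Usp26 and Usp29 did not pass.

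The members that are not deubiquitinating enzymes both passed as higher on both scales, as did 15.9% of all genes. Usp6nl rose by 0.42 ± 0.10 (adjusted p = 0.00802) and did not pass with the cone gene mean as covariate (0.31, adjusted p = 0.104). Usp46os2 rose by 0.33 ± 0.09 (adjusted p = 0.0173), and it did not pass without eNpHR-EYFP replicate 1 (0.31, adjusted p = 0.0521) or replicate 2 (0.27, adjusted p = 0.0626). Of the 24 calls made on both scales, 9 rises and 3 falls passed in every one of the 22 to 24 alternatives run for the gene: Uchl1, Uchl5, Otud3, Otud5, Usp4, Usp10, Usp15, Usp20 and Usp50, and Josd1, Otud7b and Usp27x. These alternatives are not independent checks. The separate fit repeats the main fit here, since the comparison uses all 3 groups, and averaging probes leaves the values of a gene with 1 probe unchanged. Omission of arrays and the cone gene covariate were counted on the deposited scale only.

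Each EGFP age was also compared alone with the eNpHR-EYFP cones, whose arrays both comparisons share. Against 110 days, 15 members were higher and 6 lower, with 19.9% and 8.11% of all genes. Against 220 days, 15 were higher and 5 lower, with 17.8% and 7.4% of all genes. After quantile normalization the counts were 10 and 8 against 110 days, with 13.6% and 9.64% of all genes, and 11 and 7 against 220 days, with 11.3% and 9.35%. Calls made on both scales were 10 and 6 against 110 days, with 13.2% and 7.58% of all genes, and 11 and 5 against 220 days, with 11.3% and 7.24%. For Otud5 the differences as deposited against 110 and 220 days were 1.27 and 1.0, for Uchl5 1.25 and 0.94, for Usp10 0.92 and 0.65, for Usp4 0.80 and 0.96, and for Usp5 0.72 (adjusted p = 0.0306) and 0.15 (adjusted p = 0.667). After quantile normalization Uchl5 did not pass against 220 days (0.50, adjusted p = 0.152), and Usp5 did not pass against 110 days (0.63, adjusted p = 0.0538).

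Between 110 and 220 days, the EGFP cones showed no member past the threshold as deposited or after quantile normalization, with 0.0% of all genes. At an unadjusted limma p under 0.05 there were 7 of 70 members as deposited and 6 after quantile normalization. Of 19906 genes there were 1221 as deposited and 1301 after quantile normalization. Otub2, Usp5 and Usp7 had the smallest p among members higher at 220 days. Otub2 was at 3.42, 3.35, 3.34 and 3.39 at 110 days and 3.64, 3.54, 3.84 and 4.04 at 220 days, a difference of 0.39 (adjusted p = 0.649). Usp5 was 0.57 higher (adjusted p = 0.694) and Usp7 0.37 higher (adjusted p = 0.598). Among members lower at 220 days, Usp35 stood at -0.28 (adjusted p = 0.73), Usp20 at -0.19 and Usp43 at -0.17. Groups without overlap were found for Otub2, Otud5, Usp7, Usp8 and Usp48 above and Usp35 below, 5 and 1 of 70 as deposited, with 2.32% and 1.55% of all genes, and for 4 and 1 after quantile normalization, with 2.82% and 1.48%.

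Other genes of the ubiquitin system were taken from 4 lists. Of 23 measured deubiquitinating or related enzymes outside the symbol rule, 9 rose and 1 fell in eNpHR-EYFP cones as deposited, with 23.0% and 10.1% of all genes, and 4 rose and 2 fell after quantile normalization, with 16.1% and 12.4%. The largest changes were in Desi1, Desi2, Zranb1 and Mysm1. Desi1, which acts on the ubiquitin-like protein Sumo, stood at 1.3 ± 0.11 and Desi2 at 0.97 ± 0.13. Zranb1, of the Otu family, stood at 1.09 ± 0.16 and Mysm1, a histone H2A enzyme, at -1.07 ± 0.12. All 4 passed on both scales, with quantile-normalized differences of 0.92, 0.79, 0.57 and -1.10. Psmd14, the zinc enzyme of the proteasome lid, rose by 0.71 ± 0.15 as deposited (adjusted p = 0.0051) and stood at 0.18 after quantile normalization (adjusted p = 0.45). Median log2 differences of this list were 0.32 and 0.07, against 0.07 and 0.02 for all genes.

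Partners of the member enzymes had 17 measured genes, of which 5 rose and 2 fell as deposited and 2 rose and 2 fell after quantile normalization. All genes had 23.0% and 10.1% as deposited and 16.1% and 12.4% after quantile normalization. Psmd1, a proteasome subunit, rose by 0.89 ± 0.13 as deposited and by 0.42 after quantile normalization. Eny2, the partner of Usp22, Usp27x and Usp51, rose by 0.57 ± 0.11 as deposited (adjusted p = 0.0028) and stood at 0.20 after quantile normalization (adjusted p = 0.205). Atxn7l1, of the same Atxn7 family as their cofactor, stood at -0.43 ± 0.09 (adjusted p = 0.004). Its relative Atxn7l2 went the other way, at 0.40 ± 0.11 (adjusted p = 0.0164) and 0.36 after quantile normalization (adjusted p = 0.0281). The cofactor Atxn7l3 (0.13, adjusted p = 0.208) and Atxn7 (-0.22, adjusted p = 0.162) did not pass. Wdr20 fell by -0.71 ± 0.20 (adjusted p = 0.021) and by -0.95 after quantile normalization (adjusted p = 0.0058). Ube2n, the conjugating enzyme that Otub1 binds, rose by 0.72 ± 0.17 as deposited (adjusted p = 0.0092) and stood at 0.42 after quantile normalization (adjusted p = 0.0834).

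Ubiquitin, ubiquitin-like and activating enzyme genes had 7 measured of 14, of which 1 rose and 1 fell as deposited and 1 rose and 2 fell after quantile normalization. Nedd8, the ubiquitin-like protein that Uchl3 processes, was 1.3 ± 0.09 higher, from group means of 7.59 and 7.55 to 8.86 (0.78 after quantile normalization), and Uba6, an activating enzyme, 0.35 lower, while Uba7 (0.23) and Sumo3 (0.53, adjusted p = 0.0731) did not pass. Conjugating enzymes had 30 measured genes, of which 15 rose and 4 fell as deposited and 8 rose and 6 fell after quantile normalization. For both lists the shares of all genes were 23.0% and 10.1% as deposited and 16.1% and 12.4% after quantile normalization. The median log2 difference of the conjugating enzymes was 0.28 as deposited and -0.01 after quantile normalization, against 0.07 and 0.02 for all genes. The smallest p belonged to Ube2q1 (1.07 ± 0.11), Ube2d2a (0.85 ± 0.10), Ube2h (-0.99 ± 0.11) and Cdc34 (1.18 ± 0.15), each called on both scales. After quantile normalization they stood at 0.85, 0.32, -1.01 and 0.74.

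Markers of other retinal cells were compared between the same groups, where 23.0% of all genes rose and 10.1% fell as deposited and 16.1% and 12.4% after quantile normalization. Of 7 measured ganglion cell genes, 4 rose and 0 fell as deposited and 2 rose and 0 fell after quantile normalization, and their mean level spanned 2.91 to 3.14 with EGFP and 3.36 to 3.64 with eNpHR-EYFP. Of 11 microglia genes, 5 rose and 0 fell, or 3 and 0 after quantile normalization (2.54 to 2.74 against 2.88 to 3.01). Neither range overlapped. As deposited, of 6 horizontal cell genes 2 rose and 1 fell (3.38 to 3.79 against 3.77 to 4.63), of 12 Muller glia genes 3 rose and 0 fell (5.13 to 6.08 against 5.91 to 6.98), of 10 amacrine genes 3 rose and 0 fell (3.87 to 5.05 against 4.28 to 4.99), of 11 bipolar genes 1 rose and 2 fell (4.56 to 5.45 against 4.69 to 5.39), and of 12 rod genes 4 rose and 1 fell (3.86 to 4.51 against 4.37 to 4.85). Of 8 pigment epithelium genes 2 rose and 0 fell, the 1 measured red blood cell gene did not pass, and of 20 cone genes 8 rose and 3 fell. After quantile normalization the rises and falls were 2 and 1 for horizontal cell, Muller glia and amacrine genes alike. They were 1 and 2 for bipolar genes, 1 and 1 for rod and for pigment epithelium genes, and 5 and 3 for cone genes. No marker was at 0, since the lowest intensity in the table was 1.7. Uchl1 is known from many retinal neurons, ganglion cells among them, and the ganglion cell genes Thy1, Nefl, Rbpms and Sncg rose by 0.96, 0.86, 0.78 and 0.77 as deposited. After quantile normalization Thy1 and Sncg did not pass (adjusted p = 0.0703 and 0.0932), and Nefm (0.46), Pou4f1 (0.16) and Slc17a6 (-0.43) did not pass on either scale. The part of these cell types in the differences of the members was not tested. With the mean level of the cone genes as a covariate, Josd1 stood at -1.97 (adjusted p = 0.000112), Uchl1 at 1.78 (adjusted p = 0.00597), Uchl5 at 1.28 (adjusted p = 0.0093), Otud5 at 1.3 (adjusted p = 0.00475) and Usp54 at 0.84 (adjusted p = 0.000964). Under that covariate 13 of the 27 deposited calls were lost, and the share lost over all genes was not worked out. Among these, Usp17ld (-1.22), Usp39 (0.845), Usp17lc (0.56), Otud7a (0.42), Usp46os2 (0.35) and Usp35 (-0.36) had larger differences under it than in the main fit. The differences of the other lost calls were smaller under it. Otud6a, Otud7a, Usp17lc, Usp17ld, Usp34, Usp35, Usp39, Usp44 and Usp46os2 lost theirs both there (adjusted p = 0.0609 to 0.227) and without the 110-day replicates 1 and 4 (adjusted p = 0.0539 to 0.106), and Usp2, Usp6nl, Usp25 and Usp40 under the covariate. Otud4, Usp5, Usp24 and Usp28 gained a call under it, Usp24 at 0.82 (adjusted p = 0.0459) and Usp28 at -0.36 (adjusted p = 0.0425).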

How the data were processed

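Each of 12 samples of sorted cones was measured on 1 Affymetrix array. The deposited values are linear intensities, 1.7 to 10242.1, made by the authors with RMA and affy, per the submitters' processing notes. Versions, the array's build and which arrays were normalized together were not given in the sources used here, and no detection values were used.

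Columns of EGFP arrays have 34729 values and those of eNpHR-EYFP arrays 34760. The lost lines (31) were located by a hidden Markov model on the line offset between both mean profiles (t-distributed residuals, 3 degrees of freedom, scale 0.25; loss probability 0.001; posterior of 0.999 or more), which was checked on simulated losses. It moved 21034 lines (60.6%) by 2 to 31 lines and left out 111 as ambiguous, so 34618 probes were tested. Arrays of the 2 constructs then correlated at a median of 0.944 (0.421 before, 0.934 over lines never moved), and either EGFP age alone gave the same offset on 100% of lines. Because the alignment uses the likeness of the groups, values near a change of offset are less certain; the nearest members were Usp9x (9 lines), Usp9y (11), Usp42 (15), Otud5 (18), Usp11 (19) and Usp6nl (20).

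Intensities were put on the log2 scale without a pseudocount or filter. Limma 3.58.1 (R 4.3.3) fitted all 3 groups in 1 model, and Benjamini-Hochberg adjustment ran over all probes, with a threshold of 0.05. Only 4 arrays per group limit the precision, and p-values measure the spread between these samples, which may be technical. In simulations of the eNpHR-EYFP comparison over 34618 probes, 70% of 100 changes of 1 and 30% of 100 changes of 0.5 (log2) were called, with 8 false calls among 108. Far fewer probes were changed there than were called in the data as deposited (6460 higher and 3203 lower). The adjustment depends on that number, so these rates need not hold for the data. The labels gave no pairing of samples by replicate number, and the main fit left this number out. In the platform annotation 21640 probes name 1 gene, 1321 several and 11799 none.

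Named genes were members called on both scales without overlap, all Uchl, Otub, Otud and Josd genes, a fixed set of Usp genes, up to 4 calls in each direction lost on quantile normalization, the 5 brightest and 5 dimmest members, the 3 of smallest p in each direction between ages, and 4 genes per ubiquitin list. Usp3, Usp11, Usp13, Usp16, Usp17lb, Usp17lc, Usp17ld, Usp19, Usp26, Usp29, Usp32, Usp34, Usp36, Usp37, Usp38, Usp42, Usp46os2, Usp47, Usp51, Usp53, Psmd14, Atxn7, Atxn7l2, Atxn7l3, Wdr20 and single marker genes fall outside this rule and were chosen after their values were seen, as were the groups by function. The members and lists were chosen with earlier results of these data known. Alternatives comprised quantile normalization, median centring, a filter at the median level, separate fits for each comparison, a trended robust prior, array weights, a replicate block, lines never moved, probes naming 1 gene, averaged probes, the cone gene mean as covariate, and omission of arrays.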

Additional observations from a re-analysis of the deposited data

Results flagged for a closer look

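In 6 of 150 groups of 4 arrays examined (50 named members in 3 groups), the highest or lowest array stood apart by Dixon's criterion at 95%, and chance gives about 1 in 20. Both gaps in eNpHR-EYFP cones were low values of replicate 4: Uchl1 at 4.41, with the others at 5.87 to 6.12, and Usp24 at 7.01, with the others at 8.11 to 8.22. In EGFP cones at 220 days replicate 4 was low for Uchl5 at 5.97 (others 6.34 to 6.36) and for Usp54 at 3.02 (others 3.26 to 3.31). In EGFP cones at 110 days replicate 4 was high for Usp35 at 2.94 (others 2.56 to 2.58) and replicate 1 for Usp48 at 4.82 (others 4.66 to 4.68). Their causes were not tested.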

How the results depend on the processing

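Between eNpHR-EYFP cones and the mean over EGFP ages, 19 members were higher and 8 lower. A filter at the median level, which kept 47 members, gave 12 higher, and the lines in place, with 12 members, gave 3 higher and 1 lower. The cone gene mean as covariate gave 13 higher and 5 lower, of which 11 and 3 were among the 19 and 8, and leaving out the 110-day replicates 1 and 4, the arrays of lowest cone gene level, gave 13 and 5, all among them. Leaving out 1 array gave 13 to 22 higher and 5 to 10 lower. Against 110 days (15 and 6), the lines in place gave 2 higher and 0 lower, and the covariate and the fit without both 110-day arrays gave 3 lower each; leaving out 1 array gave 11 to 19 and 5 to 7. Against 220 days (15 and 5), the filter gave 9 higher, the covariate 8 higher, and the lines in place 1 higher and 1 lower; leaving out 1 array gave 11 to 17 and 3 to 8, the lowest count of 3 lower without EGFP 220 days replicate 3 or eNpHR-EYFP replicate 1 and the highest of 8 without EGFP 110 days replicate 3. For 220 minus 110 days every alternative gave 0. Fewer members were tested under the filter and on the lines in place; the causes of the other shifts were not tested. With the replicate number as a block the first comparison gave 20 higher and 7 lower; over 12 pairs of same-numbered arrays the correlation of deviations was -0.0386 to 0.143, over 0.1 in 2 pairs, and 4 arrays correlated best with their own number. For single named members, 1208 of 1280 alternative values kept the call and 0 reversed a called direction, while 45 lost and 27 gained a call. Some alternatives reuse the values of the main fit, so the number kept overstates how much was checked. No background signal was used here, so what signal over background limits is unknown for the 23 members below the median probe.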
